A study of Homo sapiens with 8 samples.

Results

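The 10 genes that help to set how much wnt receptor complex a cell presents were examined in RKO, an established human colon carcinoma cell line. They were listed by name and role, not by any measured value, though with earlier results of these data known. The list holds the co-receptors LRP5 and LRP6, the ubiquitin ligases RNF43 and ZNRF3, and the R-spondin receptors LGR4, LGR5 and LGR6. It also holds the antagonist receptors KREMEN1 and KREMEN2, and the secreted antagonist DKK1. The listed genes are 10 of the 57992 genes in the deposited tables. Poly(A) RNA was sequenced from 8 samples, 4 given control siRNA and 4 given an siRNA against A20, the ubiquitin-editing enzyme encoded by TNFAIP3. Every sample, controls included, was also stimulated with recombinant human wnt3a at 50 ng/mL for 24 hours, so the comparison was of A20 knockdown with control knockdown in stimulated cells, and it holds no unstimulated sample.

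Wnt ligands bind a frizzled receptor together with LRP5 or LRP6, and phosphorylation of the LRP tail recruits axin and spares beta-catenin from degradation. RNF43 and ZNRF3 ubiquitinate frizzled receptors and so remove them from the surface, while R-spondins, bound to an LGR protein, clear these ligases. DKK1 occupies LRP5 or LRP6 and, with a KREMEN protein, takes the co-receptor off the surface. In the intestine LGR5 marks crypt stem cells, and LGR5, RNF43, ZNRF3 and DKK1 are all known as targets of the pathway.

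Of the 10 genes, 6 passed the expression filter (LRP5, LRP6, ZNRF3, LGR4, KREMEN1 and KREMEN2). LGR5, LGR6 and DKK1 had no read in any of the 8 samples, and RNF43 had 4 reads in all. None of the 6 tested genes differed between A20 siRNA and control siRNA at an adjusted p under 0.05 (edgeR's quasi-likelihood test, Benjamini-Hochberg adjustment over 13412 tested genes), where 1.25% of all tested genes did. At an unadjusted p under 0.05 there were 2 of 6 (LRP5 and KREMEN1), against 16.2% of all tested genes. DESeq2 and limma-voom also called 0 of the 6, with 0 and 2 of them under the unadjusted threshold. The fitted changes ran from -0.07 for KREMEN2 to 0.09 for KREMEN1 on the log2 scale, with a median of 0.04 where the median over all tested genes was 0.0027.

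Promoter sequence was at hand for 5 of the 10 genes. LRP5 and LGR4 are shown because they were expressed, and DKK1 and LGR6 because they had no read. Each is the stretch of 250 bases before a RefSeq start site (GRCh38.p14), written 5′ to 3′ on the gene's own strand. Capitals mark the letters of the TCF/LEF core, the site that beta-catenin's DNA-binding partners recognise, searched on both strands as CTTTGAA or else as CTTTGAT, and likewise as CTTTGTA and finally as CTTTGTT. The spellings differ only in their last bases, so no position can begin more than 1 of them.
LRP5 (chr11:68312341-68312590, plus strand): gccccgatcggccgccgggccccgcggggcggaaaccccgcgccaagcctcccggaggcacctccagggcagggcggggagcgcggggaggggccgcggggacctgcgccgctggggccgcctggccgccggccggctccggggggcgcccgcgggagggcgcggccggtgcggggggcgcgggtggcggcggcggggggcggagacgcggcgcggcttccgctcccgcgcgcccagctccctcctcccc
LGR4 (chr11:27472791-27473040, minus strand): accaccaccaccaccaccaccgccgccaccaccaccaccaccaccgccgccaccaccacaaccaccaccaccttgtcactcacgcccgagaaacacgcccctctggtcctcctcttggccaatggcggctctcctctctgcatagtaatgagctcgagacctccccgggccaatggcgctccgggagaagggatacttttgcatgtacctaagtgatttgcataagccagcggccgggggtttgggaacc
DKK1 (chr10:52314031-52314280, plus strand): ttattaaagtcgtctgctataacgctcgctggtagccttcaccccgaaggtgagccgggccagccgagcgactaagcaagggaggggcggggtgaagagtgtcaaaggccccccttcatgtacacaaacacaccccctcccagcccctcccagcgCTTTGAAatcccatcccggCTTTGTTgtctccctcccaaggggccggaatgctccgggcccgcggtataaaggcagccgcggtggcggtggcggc
LGR6 (chr1:202193549-202193798, plus strand): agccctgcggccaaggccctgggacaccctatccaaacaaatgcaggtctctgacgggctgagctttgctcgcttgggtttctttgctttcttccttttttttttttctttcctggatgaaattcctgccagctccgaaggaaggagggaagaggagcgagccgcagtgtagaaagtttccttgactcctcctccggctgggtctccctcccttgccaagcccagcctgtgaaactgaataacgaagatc

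The DKK1 stretch held 2 matches, their first bases 95 and 76 bases before the start site, and the other 3 stretches held none. Of all 35116 RefSeq promoters cut to the same length, 12.0% held at least 1 match and 1.21% held 2 or more. CG pairs numbered 43 in LRP5, 18 in DKK1, 14 in LGR4 and 8 in this LGR6 stretch, against a median of 11 over all promoters. LGR6 is listed with further starts and RNF43 with more than 1, and no match lay in any of their windows. LRP6, ZNRF3, LGR5, KREMEN1 and KREMEN2 were not looked at in this way.

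The knockdown was partial at the level of the transcript. Total counts ranged from 23912317 to 30022486 with control siRNA and from 21226451 to 34194273 with A20 siRNA, and the biological coefficient of variation was 2.73%. The targeted gene, TNFAIP3, averaged 5.47 ± 0.388 CPM (counts relative to the library total, scaled by TMM) in the control group and fell to 3.33 ± 0.215 CPM in the knockdown group (SDs over 4 samples each), -0.71 on the log2 scale (SE 0.0953; edgeR adjusted p = 0.00258), and the groups did not overlap. Over all genes 85 were higher and 82 lower after A20 siRNA, and with a correction for exonic length 90 were higher and 149 lower. Neither the labels nor the methods say whether the 4 replicates were separate cultures or passages, so p-values cover only the spread between these samples, which may be technical. Of the epithelial markers EPCAM, KRT8 and KRT18 were present in every library, whereas KRT19 and CDH1 had no read. Of the intestinal markers CDX2 had 332 to 612 reads per library, and CDX1, VIL1, LGALS4 and CEACAM5 had 0 to 2. Markers of leukocytes, endothelium and fibroblasts summed to at most 4 reads per list in any library.

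The co-receptors were present at very unequal levels. LRP5 (ENSG00000162337.11, chromosome 11, 68312591 to 68449275, GRCh38) was covered by 1604 to 2674 reads per sample. Its level was 80.6, 78.4, 78.5 and 82.3 CPM in control replicates 1 to 4, against 78.0, 77.3, 76.1 and 75.4 CPM in A20 siRNA replicates 1 to 4. Every A20 siRNA sample lay below every control sample. Groups were free of overlap, in either direction, for 1 of the 6 members and for 7.61% of all tested genes. The estimate on the log2 scale was -0.06 (SE 0.0268; edgeR adjusted p = 0.291), a difference of -3.96% with a 95% interval from -7.62% to -0.152%. In bulk RNA, less transcript per cell and fewer cells carrying it cannot be told apart.

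LRP6 (ENSG00000070018.8, chromosome 12, 12116025 to 12267044) is the longest of the 10 by exonic length, 10369 bases, and had 197 to 339 reads per sample. Its level was 9.95, 8.42, 9.30 and 10.2 CPM with control siRNA and 9.89, 10.8, 9.54 and 9.26 CPM with A20 siRNA, so the groups overlapped throughout. On the log2 scale the groups differed by 0.07 (SE 0.0715; edgeR adjusted p = 0.71), with an interval from -5.66% to 16.1%. Per kilobase of merged exon, LRP5 stood at 12.7 ± 0.366 CPM and LRP6 at 0.932 ± 0.0683 (SD, n = 8). The ratio of LRP5 to LRP6 was then between 12.0 and 15.6 in the 8 samples. With the longest transcript as the length, the mean levels were 15.1 and 0.943 CPM per kilobase, so the ratio depends on the length used.

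**Figure D1:**
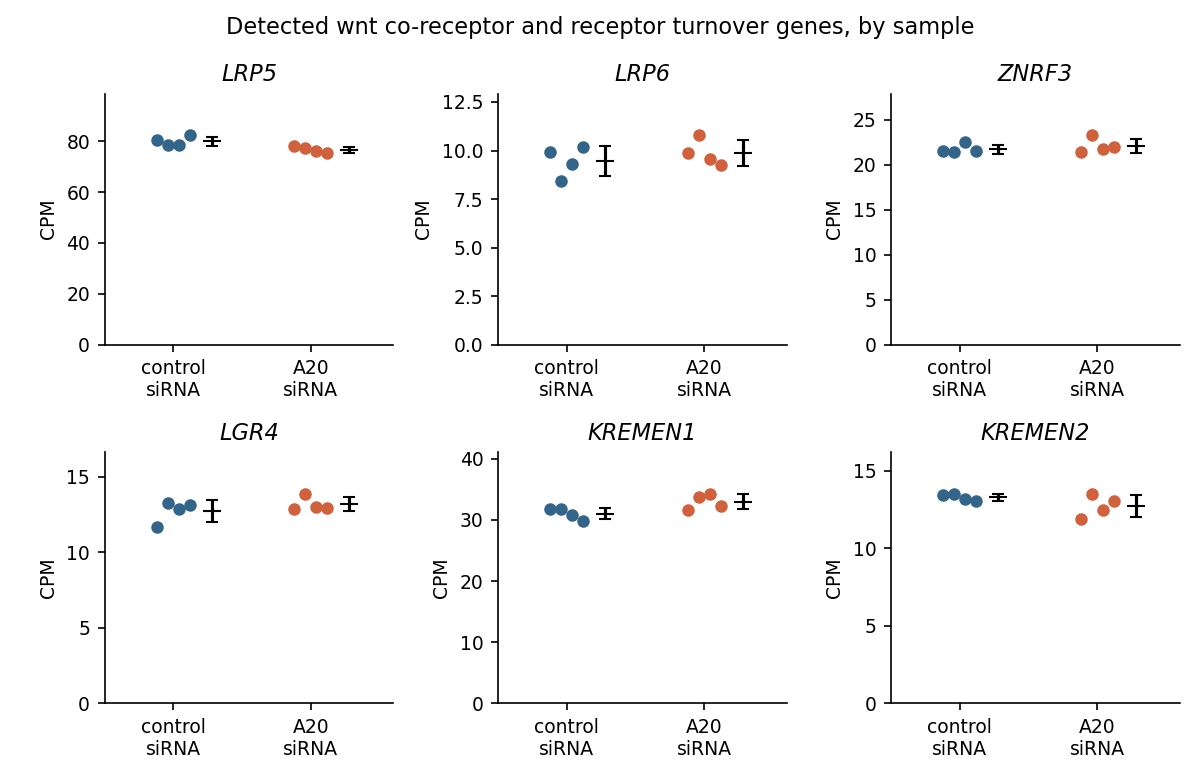
CPM (linear axes from 0) of the 6 genes that passed the filter, with 1 point per sample (4 control siRNA in blue, 4 A20 siRNA in orange) and the mean with its SD as a black bar. The points of LRP5 do not overlap between groups (75.4 to 78.0 against 78.4 to 82.3 CPM), and those of the other 5 genes do.

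Of the ligase pair, ZNRF3 was expressed and RNF43 was close to absent from the counts. ZNRF3 (ENSG00000183579.15, chromosome 22, 28883572 to 29057488) had 466 to 734 reads per sample, and its level was 21.5, 21.3, 22.5 and 21.5 CPM with control siRNA and 21.4, 23.2, 21.8 and 21.9 CPM with A20 siRNA. The groups overlapped, and A20 siRNA replicate 2 was the highest of the 8. The fitted log2 difference was 0.02 (SE 0.0433; edgeR adjusted p = 0.831), with a 95% interval from -4.48% to 8.27%.

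RNF43 (ENSG00000108375.12, chromosome 17, 58353676 to 58417595) had 1 read in each of 4 samples, 2 with control siRNA and 2 with A20 siRNA, and none in the other 4. Pooled over all libraries this is 0.0188 CPM with an exact Poisson interval from 0.00511 to 0.0481, which covers counting error only. Per kilobase, ZNRF3 was 1055 times as high as RNF43, with a counting interval from 412 to 3874. In GENCODE release 44 a same-strand gene model, ENSG00000285897, shares 68.35% of the exonic bases of RNF43, but that model is not among the counted genes, so it took no reads in these tables.

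LGR4 was the only R-spondin receptor with reads. LGR4 (ENSG00000205213.13, chromosome 11, 27365961 to 27472790) had 275 to 442 reads per sample. Its level was 11.7, 13.3, 12.9 and 13.1 CPM with control siRNA and 12.9, 13.9, 13.0 and 12.9 CPM with A20 siRNA. Control replicate 1 was the lowest and A20 siRNA replicate 2 the highest of the 8, and the remaining values lay between 12.9 and 13.3 CPM. The estimate on the log2 scale was 0.05 (SE 0.0576; edgeR adjusted p = 0.704), with an interval from -4.51% to 12.8%; without control replicate 1 it was 0.0082 and without A20 siRNA replicate 2 it was 0.03.

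LGR5 (ENSG00000139292.12, chromosome 12, 71439798 to 71586310), the crypt stem cell receptor, and LGR6 (ENSG00000133067.17, chromosome 1, 202193799 to 202319781) had 0 of 213244659 reads counted over the 8 libraries. For a count of 0 a floor of 3 reads was used, or 0.0141 CPM over all libraries and 0.0875 to 0.141 CPM in a single one. This floor is a convention, and the exact Poisson interval used for RNF43 reaches 0.0173 CPM for LGR5 and for LGR6. Set against the floor, LGR4 was 754-fold higher than LGR5 and 676-fold higher than LGR6 per kilobase, and these folds are smaller at the Poisson limit. The partner ligands were scarce as well: RSPO1, RSPO2 and RSPO3 had no read and RSPO4 had 1.

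Both antagonist receptors were expressed, whereas no read of their antagonist was counted. KREMEN1 (ENSG00000183762.12, chromosome 22, 29073035 to 29168333) had 686 to 1085 reads per sample, and its level was 31.7, 31.8, 30.7 and 29.9 CPM with control siRNA and 31.6, 33.8, 34.3 and 32.3 CPM with A20 siRNA. A20 siRNA replicate 1 lay among the controls and the other 3 above them. On the log2 scale the groups differed by 0.09 (SE 0.0388; edgeR adjusted p = 0.283), a difference of 6.11% with an interval from 0.311% to 12.2%. KREMEN1 begins 15.5 kb beyond the end of ZNRF3 on the same strand. Over the 8 samples the log2 CPM of these neighbours had a Pearson correlation of 0.398, given as a description.

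KREMEN2 (ENSG00000131650.13, chromosome 16, 2964216 to 2968380) had 278 to 407 reads per sample. Its level was 13.4, 13.5, 13.2 and 13.0 CPM with control siRNA and 11.9, 13.5, 12.5 and 13.1 CPM with A20 siRNA, a narrow band of controls inside a wider band of knockdown samples. The fitted log2 difference was -0.07 (SE 0.056; edgeR adjusted p = 0.603), with a 95% interval from -0.18 to 0.05 on that scale. The 357 exonic bases that KREMEN2 shares with PKMYT1 on the other strand make up 15.26% of its exons. PKMYT1 had 988 to 1799 reads per sample. With the strand setting not stated, reads from the shared stretch may have gone to either gene or been left out. The level of KREMEN2 per kilobase, and its share and rank beside KREMEN1, hold only within that limit.

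Shares within 3 pairs of genes were taken per kilobase of merged exon. The pairs were chosen after the values, and the opposite signs of the KREMEN estimates, had been seen. The shares are therefore given as a description only, without p-values. KREMEN2 made up 59.5% ± 0.330 of the KREMEN signal in control samples, against 56.9% ± 1.24 in knockdown samples (SDs, n = 4 each). All 4 A20 siRNA samples, at 55.5% to 58.15%, lay below all 4 controls, at 59.2% to 59.9%. The genes differ in exonic length (8020 bases for KREMEN1 and 2339 for KREMEN2), and with a correction for length and GC content their log2 fold changes were 0.07 and -0.04. LRP6 made up 6.585% ± 0.399 of the LRP signal in control samples and 7.12% ± 0.377 in knockdown samples. For LGR4 beside ZNRF3 the shares were 39.2% ± 1.49 and 39.6% ± 0.198.

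DKK1 (ENSG00000107984.9, chromosome 10, 52314281 to 52318042) had no read in any sample. Over all libraries the floor of 3 reads is 0.0141 CPM, and the exact Poisson interval reaches 0.0173 CPM. An antisense gene, PRKG1-AS1, covers 10.22% of its exonic bases and had no read either. DKK2 also had none, DKK4 had 1 read in all, and DKK3, a relative that does not act on LRP5 or LRP6 in the same way, had 1 to 9 reads per sample. Of the other antagonists of the list, SFRP1, SFRP2, SFRP4, FRZB, WIF1, SOST and APCDD1 had none, SFRP5 had 2 reads in all and SOSTDC1 had 1.

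Set in order per kilobase of exon, the level was highest for LRP5 (12.7 CPM per kilobase), followed by KREMEN2 (5.56 ± 0.242), KREMEN1 (3.99 ± 0.182), ZNRF3 (3.13 ± 0.0937), LGR4 (2.04 ± 0.0958) and LRP6 (0.932; SD, n = 8). With merged exonic length each gene stood above the next in 8 of 8 samples without overlap of the neighbouring ranges, and KREMEN1 over ZNRF3 was the closest pair at a ratio of 1.27. When the longest transcript replaced the merged exons, the means kept this order, but KREMEN2 and KREMEN1 overlapped (5.07 to 5.77 and 4.83 to 5.55 CPM per kilobase), with KREMEN2 higher in 6 of 8 samples at a ratio of 1.07. The other 4 neighbouring pairs did not overlap with that length either. KREMEN2 and KREMEN1 can therefore not be ranked independently of the length used.

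**Figure D2:**
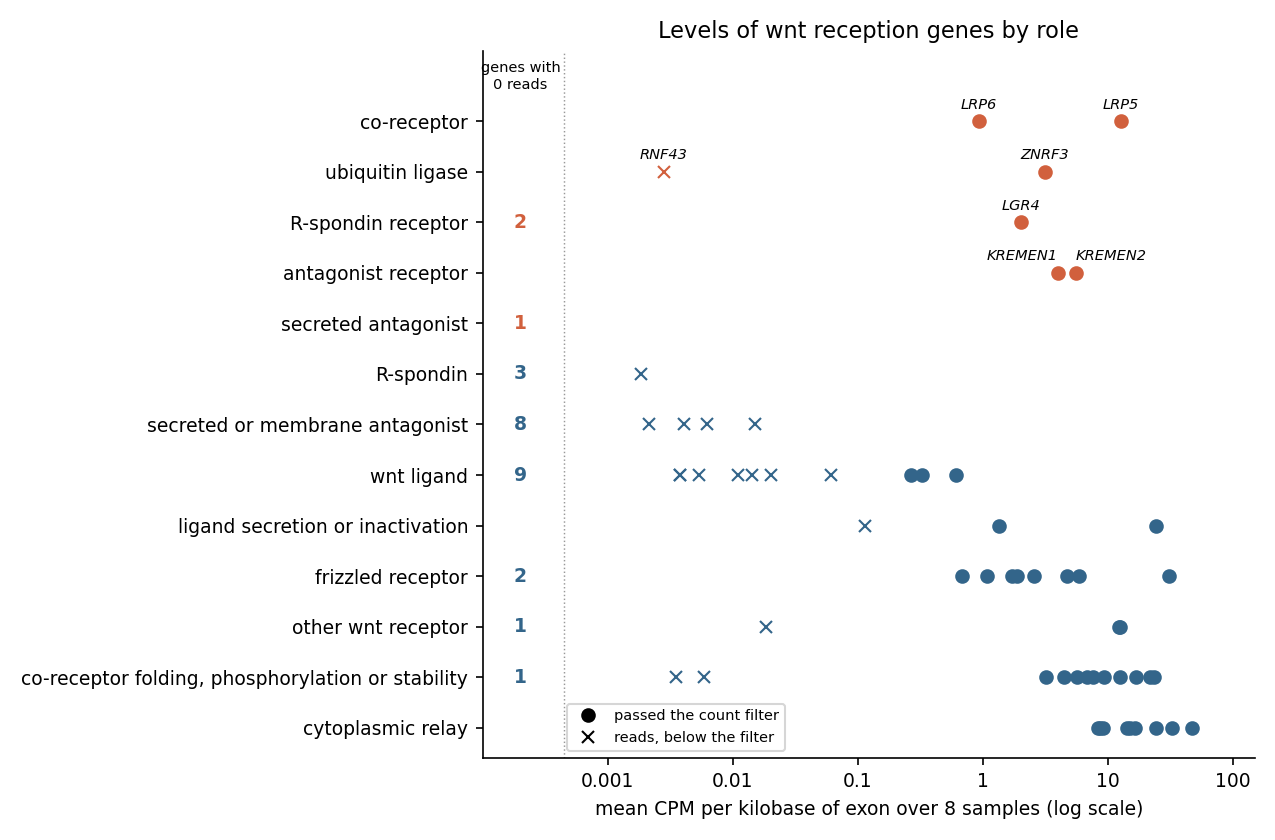
Mean CPM per kilobase of exon over 8 samples (log scale) for the 10 genes (orange, named) and 74 other wnt reception genes (blue), by role. Circles passed the count filter, crosses had reads but did not, and bold numbers at the left count the genes of a role with 0 reads, such as 3 of 4 R-spondins and 8 of 12 secreted or membrane antagonists.

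The remaining reception machinery, listed by role, held 74 genes, of which 34 were tested. None passed the adjusted threshold (edgeR), where 1.25% of all tested genes did. An unadjusted p under 0.05 was found for 4 of the 34, against 16.2% of all tested genes. These 4 were DVL3 and APC with positive and CSNK1A1 and ATP6AP2 with negative log2 fold changes. Without control replicate 1, APC, a part of the beta-catenin destruction complex, was called, and DESeq2 and limma-voom called none. The median log2 fold change over the 34 was 0.01.

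DVL3, which relays the signal from frizzled and also leads ZNRF3 to its substrate, stood at 101.5 ± 1.22 CPM in control samples and 106.9 ± 3.06 CPM in knockdown samples (SDs, n = 4 each), without overlap, 0.07 on the log2 scale (SE 0.0259; edgeR adjusted p = 0.166). CSNK1A1, a kinase that primes beta-catenin for degradation, stood at 211.7 ± 1.88 and 203.3 ± 3.31 CPM, also without overlap, with a log2 fold change of -0.06 (adjusted p = 0.188). No other of the 34 tested reception genes had groups without overlap, and over all tested genes the share was 7.61%. Among genes that fold, phosphorylate or stabilise the co-receptors, 10 of 13 were tested and none was called. ATP6AP2, an adaptor between LRP6 and the proton pump, had a log2 fold change of -0.05 (adjusted p = 0.308, edgeR), and MESD, the chaperone that LRP5 and LRP6 need to leave the endoplasmic reticulum, of -0.03 (adjusted p = 0.717). USP42, which protects ZNRF3 and RNF43 from turnover, stood at 38.8 ± 1.07 and 40.3 ± 0.812 CPM (adjusted p = 0.419, edgeR).

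RIPK4, the kinase whose interaction with A20 the study followed, and which phosphorylates dishevelled, had 5 reads over the 8 libraries, between 0 and 3 per sample, or 0.0235 CPM with an exact Poisson interval from 0.00762 to 0.0548. These counts are of RNA only, and the paper reported RIPK4 protein in RKO cells by western blot. Of the frizzled receptors, the substrates of ZNRF3, 8 of 10 were tested and none was called, with log2 fold changes from 0.00034 to 0.09. The smallest unadjusted p among them was that of FZD1, at 7.20 ± 0.502 and 7.67 ± 0.798 CPM (SDs, n = 4 each; log2 fold change 0.08, edgeR adjusted p = 0.687). FZD6 was the highest of them per kilobase at 30.7 ± 0.562 CPM and FZD8 the lowest at 0.684 ± 0.0578 (SD, n = 8), so ZNRF3 at 3.13 lay within their range.

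**Figure D3:**
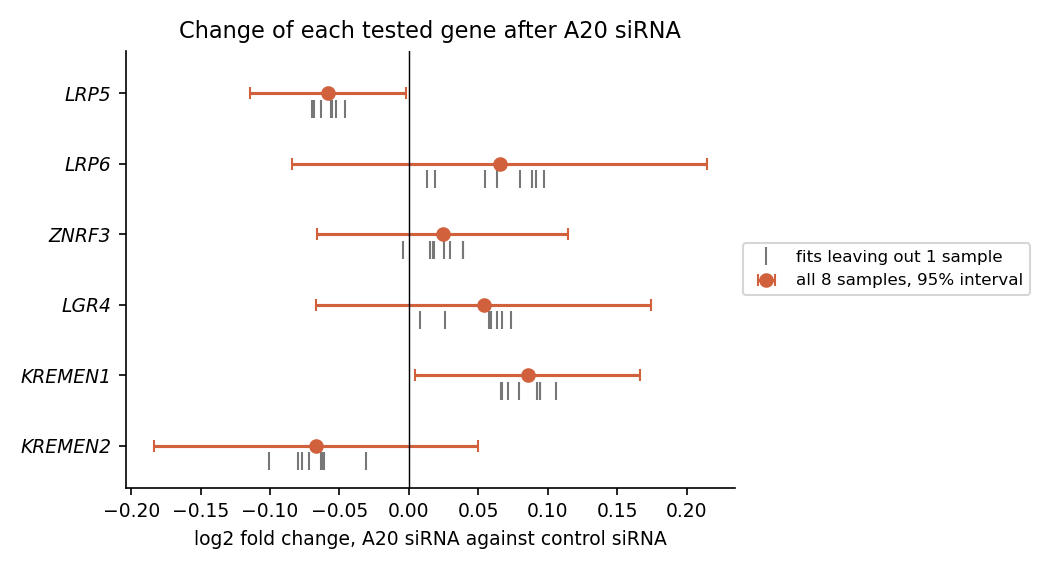
Log2 fold change of A20 siRNA against control siRNA for the 6 tested genes (horizontal axis), as the edgeR estimate from all 8 samples with its 95% interval (orange) and the 8 estimates that each leave out 1 sample (grey ticks). The intervals of LRP5 and KREMEN1 end just short of 0, the edgeR adjusted p-values of the 6 orange estimates are 0.283 or more, and a single tick of ZNRF3 lies below 0.

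Read-out genes of the pathway were looked at beside the receptors. Of 14 known wnt targets 10 were tested and none was called (edgeR, and 0 also with DESeq2 and limma-voom). At an unadjusted p under 0.05 (edgeR) there was 1 of the 10, NKD1, against 16.2% of all tested genes. The median log2 fold change over the 10 was 0.03. NKD1, a feedback antagonist that binds dishevelled, stood at 15.45 ± 0.399 CPM in control samples and 16.65 ± 0.897 CPM in knockdown samples (SDs, n = 4 each; log2 fold change 0.12, edgeR adjusted p = 0.277). AXIN2, the other classical feedback gene, stood at 3.19 ± 0.0823 and 2.75 ± 0.0996 CPM on 61 to 93 reads per sample (log2 fold change -0.22, adjusted p = 0.324). The groups did not overlap for both genes, but in opposite directions, and the same held in either direction for 7.61% of all tested genes. LEF1 and TCF7, DNA-binding partners of beta-catenin, had log2 fold changes of 0.07 and 0.05 (adjusted p = 0.418 and 0.517, edgeR).

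Across all tested genes log2 fold changes were slightly higher for genes of greater exonic length (Spearman's rho 0.18 over 13316 genes, which are not independent replicates), and 5 of the 6 members were longer than the median of 4982 bases. KREMEN2, the shortest, and LRP5 were the only members below 0. With a correction of each sample for length and GC content the rho was 0.0508, and the log2 fold changes were -0.07 for LRP5, 0.06 for LRP6, 0.02 for ZNRF3 and 0.06 for LGR4, all with adjusted p-values of 0.194 or more (edgeR). The part of the length trend in these small differences was not tested further.

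**Figure D4:**
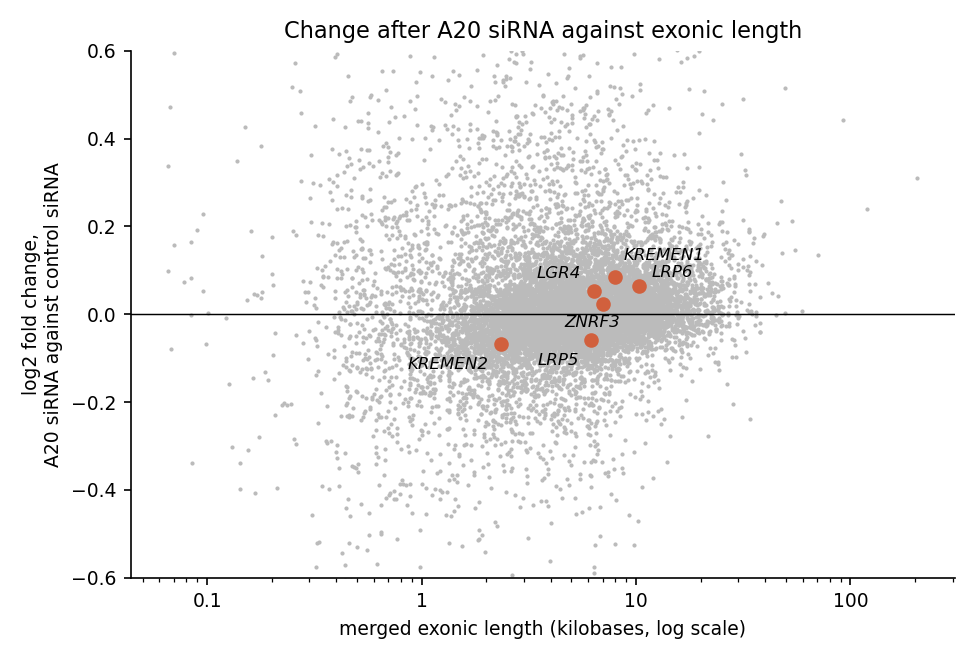
Log2 fold change of A20 siRNA against control siRNA (vertical axis) against merged exonic length in kilobases (log scale), with 1 grey point for each of 13316 tested genes and the 6 named genes in orange. The 6 points lie between -0.07 and 0.09, within the bulk of all genes, and 113 genes beyond 0.6 in either direction are outside the axis.

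By likeness of pattern over the 8 samples, the genes closest to LRP6 in log2 CPM were HMGB1P8, a pseudogene whose reads may be shared with its parent gene (Pearson's r 0.969) and D2HGDH (0.968), and those closest to ZNRF3 were CENPL (0.945) and MRPL32 (0.935). These are the top of a ranking of 13412 genes over few samples that share depth and base composition, and they are given as a description only. DKK1 had no pattern to compare.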

How the data were processed

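The authors trimmed reads with Trimmomatic, mapped them to GRCh38.p7 with STAR and deposited raw counts of uniquely mapping reads per GENCODE gene, 1 table per sample. The GENCODE release and strand setting are not given in the sources used here, so antisense and overlapping genes may share reads or lose them. Symbols, coordinates and merged exonic lengths came from GENCODE release 44, matched by identifier without version (56948 of 57992 genes). Members and lists were chosen with earlier results of these data known.

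Counts were filtered (filterByExpr, minimum count 10, leaving 13412 genes), scaled by TMM and tested with edgeR 4.0.16 in R 4.3.3 by the quasi-likelihood test without covariates, with Benjamini-Hochberg adjustment and a threshold of 0.05. Standard errors came from the fold change and F statistic, and 95% intervals from the fitted degrees of freedom. Levels per kilobase are CPM divided by merged exonic length. Floors use 3 counts. Named were the 10 members, TNFAIP3, list genes past the threshold or with the smallest p of their role, and, for LRP6, ZNRF3 and DKK1, the 2 genes most alike; other list genes and pairs were chosen after their values were seen.

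Alternatives were RLE scaling, no filter, a minimum of 10 counts in all samples, DESeq2 1.42.0, limma-voom (limma 3.58.1), the replicate number as a block, loess corrections (span 0.5) for length and for length with GC content, the block with these, and each sample left out. The code was tested on simulated data.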

Additional observations from a re-analysis of the deposited data

Results flagged for a closer look

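Single samples far from the other 3 of their group were looked for in 14 groups (the 6 tested genes and TNFAIP3 in each condition). Chance flags about 1 in 20 such groups, or 0.7 of 14, and 3 were found. LGR4 in A20 siRNA replicate 2 was 13.9 CPM, above the next at 13.0, a gap of 0.903 of the group's range. ZNRF3 in control replicate 3 was 22.5 CPM, above the next at 21.5, a gap of 0.835. TNFAIP3 in A20 siRNA replicate 2 was 3.01 CPM, below the next at 3.40, a gap of 0.847. The same sample, A20 siRNA replicate 2, also held the highest LRP6, ZNRF3 and KREMEN2 levels of its group, at 10.8, 23.2 and 13.5 CPM. For LRP5 and KREMEN1, at 77.3 and 33.8 CPM, it was not the highest of its group.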

How the results depend on the processing

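No member was called under any of the 17 alternatives. In the 102 refits of a tested member the direction was kept in 101, with adjusted p-values from 0.182 to 0.974. The exception was ZNRF3 without A20 siRNA replicate 2, at -0.0042 on the log2 scale (adjusted p = 0.974); the cause was not tested. Leaving out 1 sample moved LRP5 between -0.07 and -0.05, LRP6 between 0.01 and 0.10, ZNRF3 between -0.0042 and 0.039, LGR4 between 0.0082 and 0.07, KREMEN1 between 0.07 and 0.11 and KREMEN2 between -0.10 and -0.03. Of the other reception genes from 0 to 1 were called across the same fits (APC, without control replicate 1), and of the wnt targets none. The number of genes called over the whole table, 167, was 624 without a low-count filter, which tests 28754 genes. It was 474 with the replicate block and 469 with the replicate block and the length and GC correction. Leaving out 1 sample gave from 12 (without A20 siRNA replicate 3) to 997 (without control replicate 1). It gave 18, 45 and 16 without control replicates 2, 3 and 4, and 277 and 51 without A20 siRNA replicates 2 and 4. Deviations of same-numbered samples correlated from -0.0091 to 0.0809, with a mean of 0.0339 against -0.0113 for differently numbered samples. Of the 8 samples 4 correlated best with their own number. Whether the numbers pair the samples was not tested and is not stated in the labels. The main fit therefore used no block, and the block is given as an alternative. For TNFAIP3 every one of these fits other than DESeq2 gave a negative value and an adjusted p under 0.05. No DESeq2 value is given here for TNFAIP3. Depth limits statements on RNF43, LGR5, LGR6 and DKK1 to the bounds given with them.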

Other observations

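The cells carried the machinery to release wnt ligands but few ligand transcripts of their own. WLS, the carrier that takes wnt proteins to the surface, stood at 111.0 ± 2.44 CPM in control samples and 107.5 ± 1.66 CPM in knockdown samples (SDs, n = 4 each; log2 fold change -0.04, adjusted p = 0.386, edgeR). PORCN, which attaches the lipid that wnt proteins need, had a log2 fold change of 0.03 (adjusted p = 0.9). Of the 19 wnt ligand genes 9 had no read, WNT3A among them, and 3 were tested: WNT2B, WNT10A and WNT11. Their levels were 3.28 ± 0.295, 1.81 ± 0.102 and 0.800 ± 0.121 CPM with control siRNA (SD, n = 4 each), and the log2 fold change furthest from 0 was -0.07, for WNT11 (adjusted p = 0.913, edgeR).

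Of 4 genes listed as other wnt receptors, 2 were tested and neither was called. RYK and PTK7 stood at 12.3 ± 0.333 and 12.6 ± 0.203 CPM per kilobase over the 8 samples, close to LRP5, whereas ROR2 had no read, and the log2 fold change of RYK was 0.04 (adjusted p = 0.486, edgeR). LRP4, a relative of LRP5 and LRP6, stood at 3.21 ± 0.116 CPM per kilobase (SD, n = 8), above LRP6, with a log2 fold change of 0.03 (adjusted p = 0.795, edgeR).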
